A study of Mus musculus with 4 samples.

Results

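The sub-cluster annotated as Glutamatergic Neurons_2 was examined across the 4 single-nucleus RNA libraries of adult male mouse hypothalamus. Its members are the nuclei that the deposited annotation places in the main neuronal cluster, Neurons_1, under that sub-cluster name, 4121 of the 56386 kept nuclei (7.31%) and 11.5% of the 35756 nuclei of Neurons_1. The 2 genotypes were wild type and TRα1+m, the latter heterozygous for the R384C exchange in thyroid hormone receptor α1, which lowers the affinity of the receptor for its hormone. All 12 mice shared the C57/BL6NCr background and received no treatment. Nuclei from 3 mice of the same genotype were pooled per library, and each of 2 experimental repeats supplied a library per genotype, so n = 2 libraries per genotype and p-values measure the spread between pools, not between single mice. Because the mutation exchanges a single amino acid, the level of Thra is no check of the labels.

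The wild-type libraries of repeats 1 and 2 contributed 930 and 1276 of these nuclei, and the TRα1+m libraries 942 and 973. They held 4473034 and 7871948 unique molecular identifiers (UMIs, counted transcripts) in wild type and 4340877 and 5613152 in TRα1+m. The median per nucleus was 4380.5 and 5805.5 UMIs in wild type and 4293.5 and 5359 in TRα1+m, so repeat 2 was the deeper in both genotypes. No barcode of the sub-cluster occurred in more than 1 library (0 shared). Levels are given as CPM, the UMIs of a gene per 1000000 UMIs of the nuclei summed in a library. A CPM is not corrected for gene length, so it is compared between groups of nuclei and not between genes.

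Glutamatergic neurons load the excitatory transmitter glutamate into synaptic vesicles, and in the hypothalamus the transporter that does so is mostly VGLUT2, the product of Slc17a6. They include the neurons of the ventromedial nucleus and the orexin neurons of the lateral hypothalamus, which release the peptides encoded by Hcrt and are known for their part in wakefulness and feeding. Thyroid hormone acts on such neurons through the nuclear receptors encoded by Thra and Thrb, which regulate their target genes with and without hormone.

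The transmitter genes fitted the label. Slc17a6 stood at 195.6 and 273 CPM in the wild-type libraries and at 194 and 276 CPM in the TRα1+m libraries. Repeat 2 was the higher in both genotypes, and the genotypes overlapped. The mean of 235 ± 46.2 CPM (SD, n = 4 libraries) compared with 250.0 ± 67.2 in Glutamatergic Neurons_1, 242 ± 65.3 in Glutamatergic Neurons_3, 51.1 ± 7.39 in GABA Neurons and 70.0 ± 20.2 in oligodendrocytes. At least 2 Slc17a6 UMIs were found in 33.9 ± 12.97% of the nuclei and in 0.913% of oligodendrocytes, whose library medians of 1493 to 1811.5 UMIs were lower. After thinning each nucleus to 2000 UMIs, which left out 56 of the 4121 nuclei as too shallow, the shares were 9.32% here, 9.28% and 8.84% in the other glutamatergic sub-clusters, 1.31% in GABA Neurons and 0.907% in oligodendrocytes. Transcripts of inhibitory neurons were low: Gad2, which makes GABA, averaged 46.6 ± 6.35 CPM against 266 in GABA Neurons, and the vesicular GABA transporter Slc32a1 15.7 ± 1.91 against 149. Neither exceeded its level in oligodendrocytes, 91.3 and 39.3 CPM. The pan-neuronal synaptotagmin gene Syt1 reached at least 2 UMIs in 95.5 ± 0.801% of the nuclei.

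Glial transcripts were present at levels near those of other neuronal sub-clusters. The most abundant astrocyte marker, the glutamate transporter Slc1a2, averaged 123 ± 31.4 CPM here and 139 in Glutamatergic Neurons_1. The myelin gene Mobp averaged 41.0 ± 8.38 CPM here, 39.8 in Glutamatergic Neurons_1 and 843 in oligodendrocytes. Between 19.0% and 34.6% of the nuclei of a library carried at least 5 UMIs summed over oligodendrocyte, astrocyte, microglial and vascular markers.

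Gpr149, an orphan receptor, led the genes that set the sub-cluster apart, followed by Slit3, a secreted guidance protein, Megf11, a transmembrane protein that spaces neurons of a kind, and Lama1, a laminin chain of basement membranes. They were ranked by the lowest ratio over the 4 libraries to all other Neurons_1 nuclei, with 5 CPM added to both. Because the nuclei were clustered on these same transcripts the ratios are a description and carry no test. By that measure 77 genes were at least 2-fold higher in every library.

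Gpr149 (GRCm38 chr3:62529077-62605140, minus strand) stood at 255 and 229 CPM in wild type and 233 and 229.8 CPM in TRα1+m. In the other Neurons_1 nuclei it averaged 30.5 ± 3.46 CPM, so that every library showed a ratio of at least 6.45. Slit3 (GRCm38 chr11:35121224-35708507, plus strand) reached 577 and 589.9 CPM in wild type and 538 and 586 in TRα1+m, against 109 ± 5.08 elsewhere in Neurons_1. Both genes were even across libraries, with no library apart. Megf11 averaged 191 ± 35.5 CPM against 34.7 ± 4.19, and Lama1 68.3 ± 11.5 against 9.49 ± 1.95.

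The remaining leading genes are given in the same way. Ros1, an orphan receptor tyrosine kinase, averaged 33.1 ± 11.8 CPM against 2.11 ± 0.523 in the other Neurons_1 nuclei, and the protease gene Adamts9 49.6 ± 5.57 against 8.56 ± 0.360. Rai14, an actin-binding protein, averaged 39.2 ± 7.58 against 6.65 ± 1.23, Steap3, a ferrireductase, 24.2 ± 6.24 against 2.56 ± 0.590, and the extracellular matrix gene Hmcn2 30.1 ± 4.79 against 4.01 ± 1.07. The non-coding transcripts Gm49171, 9130024F11Rik and Gm36431 averaged 93.7 ± 29.8, 23.8 ± 3.18 and 18.9 ± 2.78 CPM. The last 3 of the 15 were the peptide gene Npvf, described further on, Hydin, a component of motile cilia (75.8 ± 29.5 CPM against 10.6 ± 4.22), and Nr5a1, the nuclear receptor SF-1 that marks the ventromedial nucleus (15.8 ± 3.95 against 0.735 ± 0.227). Cfap61, Zbbx and Pifo, which are also linked to cilia and were singled out after their values were seen, were among the 77 genes. Zbbx was less apart from Glutamatergic Neurons_3, at 33.2 to 49.1 CPM here and 18.8 to 32.4 there. Cfap61 (29.5 to 42.0 CPM here, 9.75 to 16.2 there) and Pifo (40.0 to 65.6 and 15.2 to 25.9) differed more. The cilia regulator Foxj1 was at 2.46 and 1.78 CPM in wild type and 3.23 and 1.43 in TRα1+m, below its levels of 8.49, 9.95, 12.2 and 4.36 CPM in the oligodendrocytes of the same libraries.

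**Figure D1:**
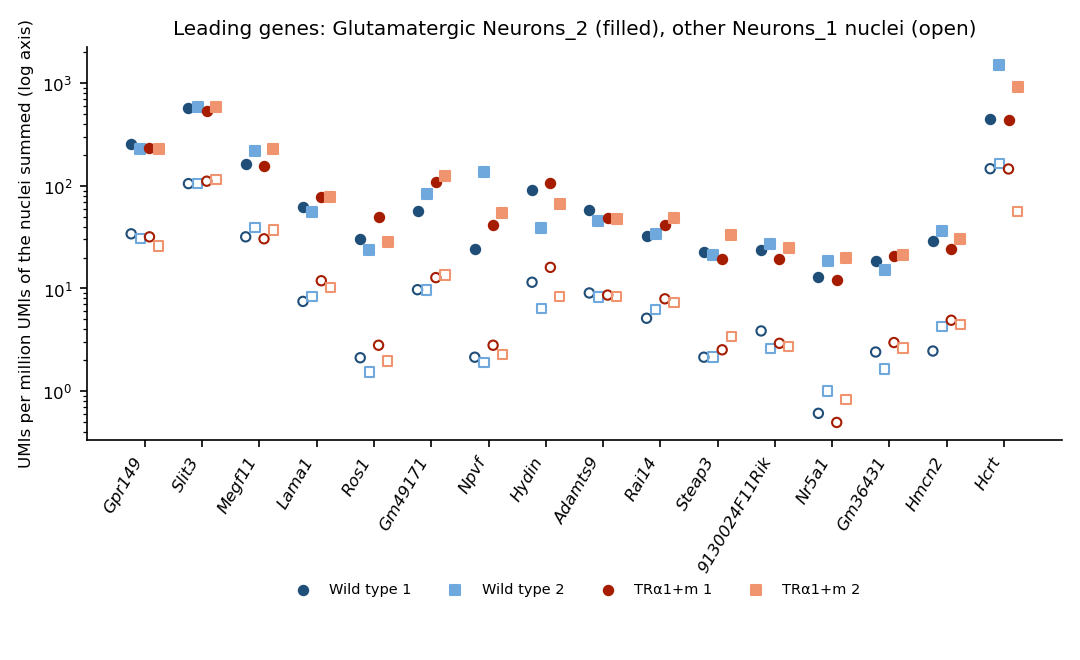
Levels of the 15 leading genes and of Hcrt, in CPM on a log axis, with 1 point per library. Filled points are Glutamatergic Neurons_2 and open points all other Neurons_1 nuclei; for Gpr149 the filled points lie at 229 to 255 CPM and the open points average 30.5, while Npvf and Hcrt spread widely between libraries.

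Genes lower in the sub-cluster were counted in the same way: 77 genes were at most 0.5-fold of the other Neurons_1 nuclei in every library. They were led by transcription factors of other hypothalamic neurons, Ebf1 (8.97 against 119 CPM), Sim1 (5.66 against 67.0), which specifies paraventricular neurons, and Ebf2 (2.22 against 30.6). Sim1 reached 204.5 ± 5.32 CPM in Glutamatergic Neurons_1. The synaptic adhesion gene Nrxn3 averaged 1080 CPM here against 4714 in the other nuclei.

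The nuclei did not carry the leading genes uniformly. At least 2 UMIs of Slit3 were found in 2452 nuclei (59.5%), of Gpr149 in 1260 (30.6%) and of Megf11 in 1017 (24.7%), and at least 1 of the 3 genes reached that level in 2832 nuclei (68.7%). The same threshold was met in 0.0489% of oligodendrocytes for Slit3. In nuclei thinned to 2000 UMIs, Slit3 was at 2 UMIs or more in 31.7% here against 3.41% in Glutamatergic Neurons_1 and 4.62% in Glutamatergic Neurons_3. By library, Slit3 was reached in 55.6% and 63.9% of nuclei from wild type and in 53.1% and 63.7% from TRα1+m, with the deeper repeat 2 higher in both genotypes.

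Megf11 lay mostly within the Slit3 nuclei. Of the 1017 nuclei with Megf11, 894 (87.9%) also had Slit3, whereas 36.5% of the Slit3 nuclei had Megf11. Gpr149 was present in 39.1% of the Slit3 nuclei, and 76.0% of the Gpr149 nuclei had Slit3. Lama1 was met in 292 nuclei (7.09%) and Hydin in 311 (7.55%), against 0.0163% of oligodendrocytes for Hydin. Nr5a1 reached 2 UMIs in 22 nuclei only, 20 of them with Slit3, and the ventromedial factor Fezf1 averaged 12.3 ± 3.15 CPM, with 7.88 in oligodendrocytes. The median depth was 7596 UMIs in the Nr5a1 nuclei, 5806 in the Megf11 and 5782.5 in the Gpr149 nuclei, against 4985 in all nuclei. The part of depth in these overlaps was not tested. The remaining 1289 nuclei had fewer than 2 UMIs of Slit3, Gpr149 and Megf11 alike; their median depth was 4340 UMIs, against 5297.5 in the 2832.

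Hcrt, the second gene named as a marker, was concentrated in few nuclei. A nucleus was called Hcrt-high at 20 or more Hcrt UMIs. There were 23 and 41 in wild type and 27 and 22 in TRα1+m, 113 in all or 2.74% of the sub-cluster, and they held 89.3% of its Hcrt UMIs. A further 7 and 6 wild-type and 7 and 3 TRα1+m nuclei had 10 to 19 UMIs. The most in a nucleus was 152 and 759 UMIs in wild type and 85 and 825 in TRα1+m. In 9.44% of oligodendrocytes 2 or more Hcrt UMIs were also found, and in thinned nuclei this share was 7.47% there, 6.20% in the sub-cluster and 3.38% in Glutamatergic Neurons_1, so a low Hcrt count did not exceed the oligodendrocyte background.

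With the Hcrt-high nuclei left out, Hcrt stood at 150.2 in place of 443 CPM in the wild-type library of repeat 1, at 92.4 in place of 1506 CPM in that of repeat 2, at 160.1 in place of 440.0 CPM in the TRα1+m library of repeat 1 and at 38.8 in place of 919 CPM in that of repeat 2. The values without them lay near those of Glutamatergic Neurons_1, which were 142 and 97.0 CPM in wild type and 137 and 67.6 in TRα1+m, and below those of oligodendrocytes in all 4 libraries. Glutamatergic Neurons_2 therefore held a small group of nuclei rich in Hcrt among nuclei at the background level. Of the 172 kept nuclei of the whole data set with at least 20 Hcrt UMIs, 65.7% were in this sub-cluster and 59 elsewhere, 17 of them in GABA Neurons and 13 in the sub-cluster named MCH Neurons. The sub-cluster named Orexin+ Neurons, with 227 nuclei, held 0 of them, and its Hcrt level was 101 and 54.0 CPM in wild type and 88.4 and 34.7 in TRα1+m.

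The share of Hcrt-high nuclei did not separate the genotypes. It was 2.47% (exact binomial 95% limits 1.57 to 3.69) and 3.21% (2.32 to 4.33) for wild type and 2.87% (1.90 to 4.14) and 2.26% (1.422 to 3.40) in TRα1+m; the intervals cover counting error only. The means were 2.84 ± 0.523% and 2.56 ± 0.428% (SD, n = 2), with a two-sided exact permutation p of 0.667, where 2 against 2 libraries cannot go below 0.333. Within these nuclei Hcrt stood at 9230 and 38052 CPM in wild type and at 7613 and 33521 CPM in TRα1+m. Repeat 2 was several-fold higher in each genotype, and the genotypes overlapped (exact permutation p 0.667). Within each repeat the TRα1+m library was the lower, an order that this unpaired test does not use. The median depth of the Hcrt-high nuclei was 6351 UMIs, above the 4958 of the others.

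**Figure D2:**
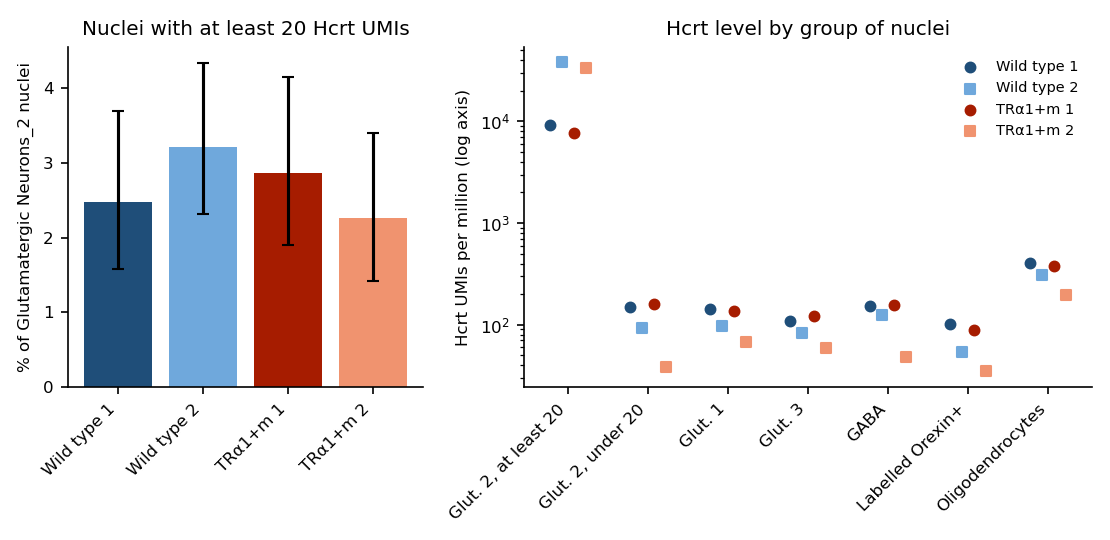
Left, the percent of Glutamatergic Neurons_2 nuclei with at least 20 Hcrt UMIs by library, with 95% exact binomial intervals, between 2.26% and 3.21%. Right, the Hcrt level in CPM on a log axis, 1 point per library, in Hcrt-high nuclei, in the other nuclei of the sub-cluster and in other groups of nuclei; only the Hcrt-high nuclei stand above 1000 CPM.

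The Hcrt-high nuclei had higher levels of some, not all, genes of the fixed orexin neuron list and lower levels of most of the 15 leading genes, Ros1 excepted. The values that follow are a description, since the nuclei were chosen by Hcrt. Rfx4, a transcription factor, averaged 766.5 ± 147 CPM in them (n = 4 libraries) and 21.4 ± 8.72 in the other nuclei, and 86.7% had at least a single Rfx4 UMI. Lhx9, a LIM homeobox factor of orexin neurons, averaged 138 ± 22.8 against 5.66 CPM, and the zinc finger gene Plagl1 182 ± 44.3 against 18.1. Both were higher in the Hcrt-high nuclei of all 4 libraries.

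Pdyn, the dynorphin precursor that orexin neurons release alongside, averaged 128 ± 66.5 CPM against 24.0, and Ros1 141 ± 71.8 against 29.4. Qrfp, a peptide of the same region, was uneven, with 6.94 and 102 CPM in wild type and 0 and 67.7 in TRα1+m. Slc17a6 was also present, at 132 ± 30.8 CPM against 238 ± 46.6 in the other nuclei, and 53.1% of Hcrt-high nuclei had at least a single UMI of it. In contrast, Slit3 averaged 66.3 ± 49.1 CPM in Hcrt-high nuclei and 590.2 ± 22.4 in the others, Gpr149 8.53 against 244, and the glycosyltransferase gene Galntl6 263 ± 264 against 1727. Hydin differed less, at 56.9 ± 32.7 against 76.4 CPM. Of the same orexin neuron list, Nptx2, a synaptic pentraxin, stood at 47.6 ± 22.6 against 31.2 CPM and the orexin receptor gene Hcrtr2 at 36.0 ± 41.2 against 64.1. Hcrtr1 and Ebf2 had 0 of 747785 UMIs in the Hcrt-high nuclei, which allows up to 4.01 CPM, and averaged 3.42 and 2.30 CPM in the others, so a difference was not detectable. At least 2 Slit3 UMIs were found in 10 of the 113 nuclei (8.85%), against 60.9% of the other nuclei.

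**Figure D3:**
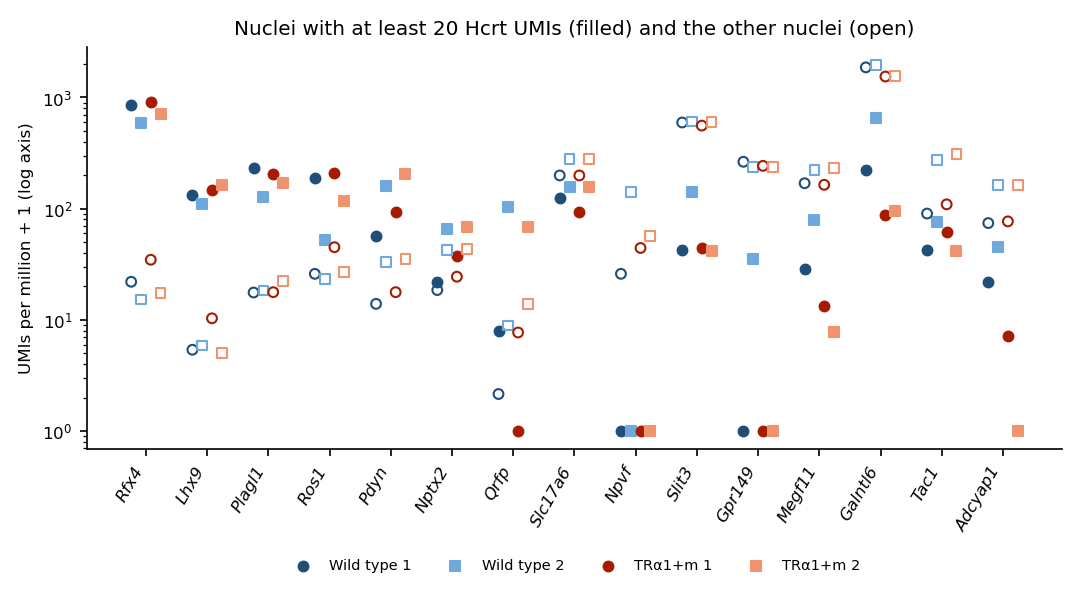
Levels of 15 genes in Hcrt-high nuclei (filled points) and in the other nuclei of Glutamatergic Neurons_2 (open points), as CPM plus 1 on a log axis, 1 point per library. Rfx4, Lhx9, Plagl1, Ros1 and Pdyn lie higher in the Hcrt-high nuclei of every library, and Slit3, Gpr149, Megf11 and Galntl6 lower.

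Npvf, which encodes RFamide peptides and is a transcript of the dorsomedial hypothalamus, was also concentrated in few nuclei. At least 20 Npvf UMIs were found in 15 nuclei, 2 and 7 in wild type and 2 and 4 in TRα1+m, and these held 83.4% of the Npvf UMIs of the sub-cluster. The level of the whole sub-cluster followed them, at 24.1 and 135 CPM in wild type and 41.7 and 54.3 in TRα1+m. None of the 113 Hcrt-high nuclei had an Npvf UMI (0 of 747785 UMIs, which allows up to 4.01 CPM), but 2.42% of the other nuclei had a Npvf UMI, so few would be found among 113 in any case. Ros1 reached 2 UMIs in 7 of the 15 Npvf nuclei (46.7%) and in 28 of the 113 Hcrt-high nuclei (24.8%). Outside those groups the shares were 3.73% and 3.29%. The 160 Ros1 nuclei lay in several groups, 76 (47.5%) of them with Slit3, against 59.5% of the whole sub-cluster.

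The spread between nuclei repeated this picture. In nuclei thinned to 2000 UMIs the variance was divided by the mean for the 5659 genes with a mean of at least 0.05 UMIs in every library, a ratio near 1 being what counting alone gives. The median of the lowest ratio over libraries was 0.987. Ranked by that lowest ratio, Hcrt was highest, at 18.5 and 115 in wild type and 14.3 and 103 in TRα1+m. Npvf came next, with 9.08 as its lowest value, and at 19.5 it lay above Hcrt in the wild-type library of repeat 1. Both are transcripts of few nuclei. They were followed by Galntl6 (lowest 7.84), the adhesion genes Lsamp (6.70), Cntn5 (6.58) and Tenm2 (6.25), the potassium channel subunit Kcnip4 (6.16), the RNA-editing family member Adarb2 (6.13), the receptor Lrp1b (5.46) and the synaptic gene Lrrtm4 (5.22). The ion channel Trpm3, Sgcz, Gm32647, the growth factor Nrg1 and the splicing factor Rbfox1 completed the 15, with lowest ratios of 5.01, 4.99, 4.82, 4.54 and 4.45. These 13 genes averaged between 0.288 and 22.6 UMIs per thinned nucleus, and their ratios varied less between libraries than those of Hcrt and Npvf.

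Of the other peptide transcripts, Adcyap1 and Tac1 were also present in the other glutamatergic sub-clusters, and Pmch and Oxt did not exceed background. Adcyap1, the precursor of PACAP, stood at 71.5 and 157 CPM in wild type and 73.3 and 157 in TRα1+m. The repeats differed and the genotypes did not separate. Its mean of 115 ± 48.9 CPM was close to the 100.1 and 113 of Glutamatergic Neurons_1 and Glutamatergic Neurons_3. Tac1, the substance P precursor, stood at 87.9 and 264 CPM in wild type and 107 and 301 in TRα1+m, and averaged 548.5 CPM in Glutamatergic Neurons_3. At least 2 UMIs of Pmch were found in 25.7 ± 8.71% of nuclei and in 25.6% of oligodendrocytes, and those of Oxt in 14.5 ± 14.0% and 15.4%, so neither exceeded the oligodendrocyte background. Kiss1 and Npw had 0 of 22299011 UMIs, which allows up to 0.135 CPM.

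Nuclei of the sub-cluster made up 9.72% (95% exact interval 9.14 to 10.3) and 14.6% (13.9 to 15.3) of the Neurons_1 nuclei of wild type and 8.87% (8.34 to 9.43) and 14.3% (13.4 to 15.1) in the TRα1+m libraries. The repeats lay apart, with means of 9.30 ± 0.603% and 14.4 ± 0.231% (n = 2), while the genotypes overlapped at 12.2 ± 3.44% and 11.6 ± 3.81%. In edgeR on the numbers of nuclei the log2 fold change between genotypes was -0.07 (SE 0.432, adjusted p 0.992), and with the repeat as block -0.08 with an adjusted p of 0.796. It was 0.25 without the second wild-type library, and leaving out the TRα1+m library of repeat 1 turned it to 0.23.

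Whether the genotype changed expression in these nuclei was asked with UMIs summed per library. At an adjusted p of 0.05 edgeR called 0 of 14458 genes (0%), and 168 genes (1.16%) had an unadjusted p below 0.05, 0.415% of the tested genes with the higher level in TRα1+m and 0.747% with the lower. DESeq2 called 0 genes as well, with 28 at an unadjusted p below 0.05. The methods of the study place a library of each genotype in every repeat. With the repeat as block, which leaves 1 residual degree of freedom per gene, edgeR called 98 genes (0.678%), 21 higher (0.145%) and 77 lower (0.533%) in TRα1+m, and DESeq2 called 1. Of the 98 genes, 86 had genotypes that did not overlap. Without regard to any test, 16.5% of all genes were higher in both TRα1+m libraries than in both wild-type libraries and 8.22% were lower.

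Genes were ranked by p among those with a mean of at least 10 CPM and genotypes that did not overlap. The first of them with lower levels in TRα1+m were mostly abundant neuronal transcripts with modest ratios. Galntl6 stood at 1812 and 1898 CPM in wild type and at 1488 and 1515 CPM in TRα1+m. Both mutant libraries lay below both wild-type libraries, which the naming rule required and 8.22% of all genes met. The log2 fold change was -0.36 (SE 0.0780) (edgeR, adjusted p 1.00), and Galntl6 fell with the repeat as block (adjusted p 0.00014). Fam155a, an auxiliary subunit of the sodium leak channel, stood at 3929 and 4243 CPM in wild type and 3356 and 3419 in TRα1+m (log2 fold change -0.32, block adjusted p 0.000251 in edgeR). The acid-sensing channel Asic2 (-0.35), the A-type potassium channel Kcnd2 (-0.28) and the sarcoglycan Sgcz (-0.28) moved likewise and were called with the block. Dtna, a dystrophin-associated protein, had a log2 fold change of -0.47 and was also called with it.

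Among these genes of smallest p, the less abundant Cftr and Gldn showed larger ratios, which a small p at low counts requires. Cftr, a chloride channel, stood at 16.1 and 16.8 CPM in wild type and 8.75 and 9.26 in TRα1+m, and Gldn, a secreted adhesion protein, at 24.1 and 26.4 against 16.1 and 13.7. Their genotypes did not overlap, which the naming rule required, and both fell with the block (adjusted p 0.0178 and 0.00613 in edgeR). Without it the log2 fold changes were -0.92 (SE 0.232) and -0.81 (SE 0.218).

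Several of the named genes with higher levels in TRα1+m are known from cilia, a grouping made after their values were seen and so no evidence about cilia genes at large. Dnah2, a dynein heavy chain of the axoneme, stood at 10.95 and 9.27 CPM in wild type and 21.0 and 17.6 in TRα1+m. Cfap206 stood at 10.3 and 11.4 against 19.1 and 19.8 CPM, Wdr66 at 25.5 and 24.3 against 38.9 and 38.1, and the kinesin Kif6 at 21.9 and 21.5 against 31.1 and 40.3. In each of these 4 genes both mutant libraries lay above both wild-type libraries, which the naming rule required and 16.5% of all genes met. Each rose with the repeat as block (adjusted p between 0.00969 and 0.0388 in edgeR). They carried no call without it. Iqck, placed in the same group, stood at 14.8 and 16.5 against 24.0 and 25.8 CPM and was called by neither fit (block adjusted p 0.0849 in edgeR). These levels are low: only 7.04% of the nuclei had a Dnah2 UMI and 14.5% a Wdr66 UMI. In oligodendrocytes of the same libraries Kif6 was higher, at 119.7 to 178 CPM, and its part in the Kif6 values was not tested. Wdr66 and Kif6 were also higher in TRα1+m, without overlap, in Glutamatergic Neurons_1 and Glutamatergic Neurons_3. In the former Wdr66 stood at 7.26 and 5.02 against 14.5 and 10.0 CPM, and Kif6 at 14.7 and 15.2 against 17.9 and 23.3. Dnah2, Cfap206 and Iqck overlapped between genotypes in both of these sub-clusters. The fixed tanycyte and ependymal markers summed to 12.3 and 8.64 CPM in wild type and 16.1 and 8.73 CPM in TRα1+m, overlapping between genotypes, with Ccdc153 at 6.04, 1.65, 6.68 and 0.891 CPM in the same order. Hydin overlapped too, at 91.0 and 39.1 CPM in wild type and 107 and 66.3 in TRα1+m, although within each repeat the mutant library was the higher.

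Among the other named genes with higher levels, the long non-coding Gm49171 stood at 57.0 and 83.5 CPM in wild type and 109.9 and 125 in TRα1+m and rose with the block (adjusted p 6.3e-05 in edgeR, log2 fold change 0.69). Gm4876, annotated as antisense, stood at 59.2 and 65.3 against 105 and 92.8 CPM and also rose with the block; whether the counting used the strand is not given in the sources used here, so reads from the opposite gene cannot be told apart. 4930509J09Rik and Prag1 had log2 fold changes of 0.75 and 0.56 and were not called by either fit.

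**Figure D4:**
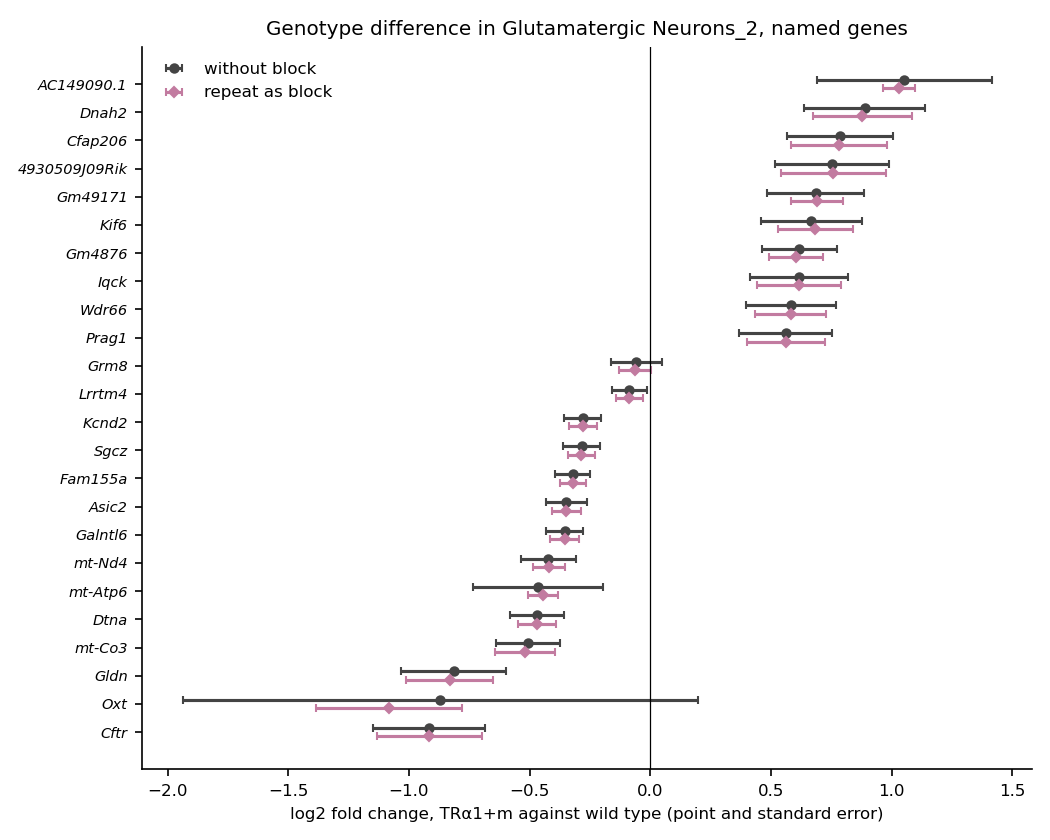
log2 fold change of TRα1+m against wild type with its standard error for the genes of smallest p and those the study names, in Glutamatergic Neurons_2, without a block (grey circles) and with the repeat as block (pink diamonds). The estimates hardly differ between the fits, except for Oxt, and the standard errors are smaller with the block, in proportion most of all for AC149090.1 and mt-Atp6.

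The genes that the study singled out in neurons were chosen on these samples, so their direction here is not independent evidence. AC149090.1, placed on the unlocalised scaffold JH584304.1, stood at 453 and 286.5 CPM in wild type and 1008 and 576 in TRα1+m. Within each repeat the mutant was about 2-fold higher, and repeat 1 was the higher in each genotype. The log2 fold change was 1.05 (SE 0.362), with an adjusted p of 1.00 without and 1.48e-19 with the block in edgeR; reads that near-identical copies share could not be told apart. mt-Atp6 fell with the block (1116 and 1838 against 916 and 1301 CPM, adjusted p 8.4e-06). Lrrtm4, a synaptic adhesion gene, had a log2 fold change of -0.09 (SE 0.0729) and the glutamate receptor gene Grm8 of -0.06 (SE 0.106), neither called. mt-Co3 is described with the mitochondrial transcripts. Oxt, at background in these nuclei, stood at 276 and 70.0 against 172 and 23.0 CPM and was not called.

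Transcripts of the mitochondrial genome were the list with the most members called lower in TRα1+m with the block. Of the 13 genes, all 13 had negative log2 fold changes, with a median of -0.42 against 0.01 for all genes tested. Of them 8 had an unadjusted p below 0.05 with the lower level in TRα1+m (0.747% of all genes did), 8 were called lower with the block (0.533% of all genes), and 9 were lower in both mutant libraries than in both wild-type libraries (8.22% of all genes). mt-Nd4, a subunit of complex I, stood at 609 and 733 CPM in wild type and 499 and 538 in TRα1+m (block adjusted p 7.86e-05 in edgeR). mt-Co3, a subunit of cytochrome oxidase, stood at 2490 and 2756 against 2117 and 1700 CPM, with a log2 fold change of -0.51 (SE 0.133), and was not called with the block (adjusted p 0.313). mt-Co2 and mt-Nd5 fell with it (log2 fold changes in that fit -0.43 and -0.51). The 13 transcripts summed to 8799 and 10057 CPM in wild type and 7511 and 6879 in TRα1+m. In oligodendrocytes of the same libraries the sums were 23118 and 24446.5 against 19660 and 17883.5 CPM, so the order of the genotypes was the same in another cell type. Such transcripts are made outside the nucleus; how much of them each library carried over was not tested.

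Genes of excitability and synapses had mostly negative log2 fold changes, and so had abundant genes in general. Of all tested genes 51.4% had positive log2 fold changes, but of the 1944 with a mean of at least 100 CPM, a level chosen after seeing the data, 70.6% had negative ones (median -0.05), and 50 of these (2.57%) were called lower and 4 higher with the block. Of 23 HCN and potassium channel genes, 17 had negative log2 fold changes, 3 had an unadjusted p below 0.05 (Kcnd2, Kcnip4 and Kcnn2, all lower, against 0.747% of all genes) and 2 were called lower with the block (0.533% of all genes), with a list median of -0.13. Within the 16 of them at or above 100 CPM, 13 were negative (median -0.17) and both calls lay among them. Of 19 synaptic adhesion genes 18 were negative (median -0.12), among them all 15 at or above 100 CPM, and Cntnap5b was the one called with the block, at 597 and 551 CPM against 496 and 467. Il1rapl1 had a log2 fold change of -0.20 and was not called. Of 16 calcium and sodium channel genes 13 were negative (median -0.08), among them all 12 at or above 100 CPM, and Cacna2d3 (log2 fold change -0.34) and Cacna1d (-0.43) were called lower with the block.

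Among glutamate receptors, 12 of 14 ionotropic genes were negative (median -0.07). The AMPA receptor subunit Gria3 stood at 678 and 635 CPM in wild type and 546 and 493 in TRα1+m. It fell with the block (adjusted p 0.000209 in edgeR) and was the only member called. Of all genes 0.533% were called lower with the block, and of those at or above 100 CPM 2.57%. Of 7 metabotropic genes 6 were negative and none was called. Of 13 GABA-A receptor genes 9 were negative and none was called by either fit. Across all tested genes the Pearson correlation of the log2 fold change with the log level was -0.13, a description across genes that share the 4 libraries.

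For thyroid hormone itself, Thra stood at 91.0 and 113 CPM in wild type and 83.4 and 80.7 in TRα1+m (log2 fold change -0.36, SE 0.157, no call in either fit), and Thrb at 289 and 298 against 302 and 266. Thrb averaged 289 ± 16.04 CPM here, against 197 ± 11.1 in Glutamatergic Neurons_1 and 217 ± 20.4 in Glutamatergic Neurons_3. Of the 12 receptors and cofactors none was called with or without the block. Among transport and metabolism genes the amino acid transporter Slc7a8 had the smallest p, at 19.0 and 23.0 against 14.1 and 15.3 CPM, and none of the 7 tested genes was called. The deiodinase genes Dio2 and Dio3 were too low to be tested. Of 11 tested response genes 9 had negative log2 fold changes (median -0.24). In 3 both mutant libraries lay below both wild-type libraries (8.22% of all genes did), and in 2 above them (16.5% of all genes). The 2 were Camk4, a calmodulin-dependent kinase, at 102.6 and 108 CPM in wild type and 134 and 120.3 in TRα1+m, and the matrix protein gene Reln, at 38.2 and 40.5 against 59.0 and 40.8 CPM, neither called by either fit. Of the 3, Flywch2 stood at 13.6 and 11.4 against 7.602 and 7.48 CPM without a call, and Klf9, a direct target, at 42.9 and 36.6 against 33.2 and 36.0. Shh was called lower with the block (5.81 and 12.96 against 2.995 and 5.70 CPM), as were 0.533% of all genes.

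The remaining lists showed no call without the block. Of 30 tested neuropeptide genes 14 were positive and 16 negative. Pomc alone was called lower with the block (11.8 and 36.6 against 8.75 and 18.2 CPM), as were 0.533% of all genes. Hcrt had a log2 fold change of -0.57 (SE 0.625) and Slc17a6 of -0.05 (SE 0.215). The orexin receptor gene Hcrtr2 stood at 49.9 and 54.8 CPM in wild type and 78.8 and 68.8 in TRα1+m (log2 fold change 0.45, SE 0.167, block adjusted p 0.0774 in edgeR). Of 14 clock genes and 11 tested immediate early genes none was called by either fit.

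Whether the genotype difference was particular to these nuclei was tested as an interaction with the other glutamatergic sub-clusters. Against Glutamatergic Neurons_1, edgeR called 0 of 15988 genes (0%), with 665 at an unadjusted p below 0.05 (4.16%), and DESeq2 called 0. The smallest p belonged to Adcy8, an adenylate cyclase, which stood at 66.4 and 58.8 CPM in wild type and 88.9 and 67.9 in TRα1+m here, and at 134 and 125 against 124 and 92.6 in Glutamatergic Neurons_1 (interaction 0.60, SE 0.0984, adjusted p 0.0866). H2-Q2 (1.505, adjusted p 0.303), whose reads can be shared with related genes, and Sgcd (-0.31, adjusted p 0.546) came next. With the repeat as block 37 genes were called, and without the TRα1+m library of repeat 1 or of repeat 2 edgeR called 17 and 38.

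Against Glutamatergic Neurons_3, 4 of 14920 genes were called (0.0268%), 1 with a positive (0.0067%) and 3 with a negative interaction (0.0201%), and 685 had an unadjusted p below 0.05 (4.59%). Fstl4, a follistatin-like protein, stood at 472 and 468 CPM in wild type and 396 and 431 in TRα1+m here, and at 68.6 and 66.5 against 108 and 106 in Glutamatergic Neurons_3. It was lower in the mutant in the former and higher in the latter, without overlap in either (interaction -0.85, SE 0.118, adjusted p 7.4e-05 in edgeR).

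Deptor, an inhibitor of mTOR, stood at 146 and 104 CPM in wild type and 107 and 86.6 in TRα1+m here, and at 28.3 and 21.9 against 35.7 and 40.5 in Glutamatergic Neurons_3 (interaction -0.97, SE 0.162, adjusted p 0.00204). Its genotypes overlapped here and did not there. Within each repeat the mutant was the lower here, and Deptor fell in this sub-cluster with the block (log2 fold change -0.40, adjusted p 0.0255 in edgeR). Gm4876 was higher in both mutant libraries here and lower in both there, at 119 and 137 against 112 and 118 CPM (interaction 0.81, SE 0.122, adjusted p 0.000311). These 3 genes were also called with the block, where 70 genes passed. Without the wild-type library of repeat 2 none of the 3 was called (adjusted p 1.00 for each), although the interactions were still -0.82 for Fstl4, 0.79 for Gm4876 and -1.01 for Deptor. Without that of repeat 1 Fstl4 alone of the 3 was called (adjusted p 0.0483, interaction -0.89), and Gm4876 (0.0847) and Deptor (0.368) were not. DESeq2 called 0 genes, with an adjusted p of 0.226 for Fstl4.

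**Figure D5:**
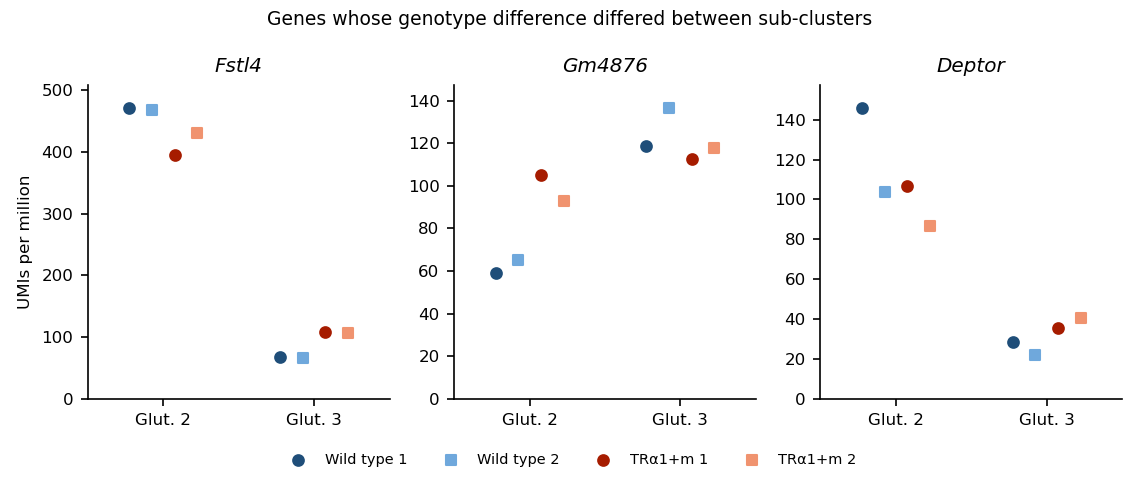
Levels in CPM, 1 point per library, of 3 genes whose genotype difference differed between Glutamatergic Neurons_2 and Glutamatergic Neurons_3. Fstl4 lies lower in the TRα1+m libraries of the former and higher in those of the latter.

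The repeats differed more than the genotypes. With genotype in the model, edgeR called 3150 of 14458 genes (21.8%) between repeats, 1606 higher (11.1%) and 1544 lower (10.7%) in repeat 2; DESeq2 called 599. Slc17a6 rose in repeat 2 (log2 fold change 0.45, SE 0.0800), and so did Tac1 (1.496) and Adcyap1 (1.07), each in both genotypes. Hydin fell by 0.99 on the log2 scale, and Avp fell by 1.38. Of 5 astrocyte markers 4 were lower in repeat 2, and of 6 oligodendrocyte markers 2 were. Of the other leading genes, Megf11 (log2 fold change 0.42), Gm49171 (0.31) and Nr5a1 (0.57) were higher in repeat 2 and Ros1 (-0.64) lower, each called (edgeR, adjusted p between 0.000105 and 0.0302), while the remaining ones, Gpr149 (-0.13) and Slit3 (0.03) among them, were not called. The depth of the nuclei and the mice of each repeat cannot be told apart.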

How the data were processed

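Reads had been aligned and UMIs counted by the authors with Cell Ranger 5.0.1, introns included, on mm10 (GRCm38). The deposited matrices hold whole-number counts per gene and barcode without normalisation, and the deposited annotation gives library, cluster and sub-cluster. Of 68190 barcodes 56386 were annotated. The authors had limited counts, features, mitochondrial share and doublet score; 4034 of the other 11804 barcodes lay within the first 3 limits, and doublet scores were not recomputed. Sub-clusters were used as annotated.

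UMIs were summed per library and tested in edgeR 4.0.16 (R 4.3.3; filterByExpr, TMM factors, robust quasi-likelihood F-test, two-sided, Benjamini-Hochberg adjustment over all tested genes). The test without a block was run on simulated counts, where it missed most 2-fold changes, found most 4-fold changes and made a larger share of false calls than the nominal 5%. The simulation held no shared difference between repeats and changed only genes above a set mean count. The fit with the repeat as block was not simulated. Nuclei per sub-cluster were tested likewise, with the Neurons_1 total as offset. The study's methods pair the libraries by repeat, and the repeat differences of the genotypes correlated across genes (Pearson r 0.604), so the repeat was also fitted as a block. Alternatives included DESeq2 1.42.0, RLE factors, no filter, bias-adjusted deviances, equal numbers of nuclei (930 per library), sets of nuclei left out, and each library left out, where the lone library is assumed to vary like the others. The block with DESeq2 or with bias-adjusted deviances was added after seeing the data. Shares, thinning and ratios used Python 3.11.15 with scipy 1.17.1.

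Genes named were those with an adjusted p under 0.05, the 10 of smallest p per direction with a mean of at least 10 CPM, genotypes that did not overlap and the same direction in both repeats, the genes the study names in neurons, up to 4 members per list with an unadjusted p under 0.05, the 15 first genes by ratio and by variance, and the first genes of each interaction. The sub-cluster, the lists and these rules were chosen with earlier results of these data known. Some genes these rules name are not reported here. Positions come from GENCODE vM21 on GRCm38, matched by gene ID.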

Additional observations from a re-analysis of the deposited data

Results flagged for a closer look

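The genotype difference of 3 genes differed between Glutamatergic Neurons_2 and Glutamatergic Neurons_3 by a test of the difference itself, the interaction in edgeR: Fstl4 (-0.85 on the log2 scale), Gm4876 (0.81) and Deptor (-0.97). The 4 libraries supplied both sub-clusters, and none of the 3 passed without the wild-type library of repeat 2 (interactions -0.82, 0.79 and -1.01), nor Gm4876 and Deptor without that of repeat 1 (0.83 and -0.92).

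Outside the annotated nuclei, 107 of 11804 barcodes held at least 20 Hcrt UMIs, against 113 in Glutamatergic Neurons_2; the authors' annotation assigns them to no cluster and no comparison used them. Wild type held 11 and 51 of them and TRα1+m 9 and 36. Of the 107, 88 lay outside the authors' limits on counts, features or mitochondrial share, 65 through low depth and 38 with more than 5% mitochondrial counts, and 19 lay within them. Their median depth was 1363 and 987 UMIs in wild type and 3823 and 703 in TRα1+m, and 29 carried an Slc17a6 UMI. Whether these barcodes are nuclei was not tested.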

How the results depend on the processing

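The genotype count of 0 held with RLE factors, bias-adjusted deviances, DESeq2, equal numbers of nuclei, without Hcrt-high nuclei, without nuclei carrying glial UMIs and without each library. It became 16 without the filter on low counts, 98 with the replicate block (repeat as block), 72 with the block and bias-adjusted deviances, and 1 in DESeq2 with the block; the cause was not tested. All 39 named genes kept their direction under the 10 alternatives that leave out no library. Leaving out a library turned Oxt (-2.99 to 0.45) and Grm8 (-0.16 to 0.0312). The interaction with Glutamatergic Neurons_1 gave 7 calls without the filter, 37 with the block and 0 to 38 without a library. That with Glutamatergic Neurons_3 gave 29, 70 and 0 to 122 (122 and 30 without the second and first TRα1+m library, 1 and 0 without the first and second wild-type library), 3 with bias-adjusted deviances and 0 in DESeq2. The repeat count was 599 in DESeq2 and 1340 to 3122 without a library, in fits with no genotype term, 1340 when the first TRα1+m and 1559 when the first wild-type library was left out. The share of nuclei ranged from -0.45 to 0.25 on the log2 scale without a library, with 0.23 among them, and was -0.08 with the block, which changed no call there, and the difference in Hcrt-high share, main value -0.279 percentage points, from -0.650 to 0.0905, with 0.0231 when the second TRα1+m library was left out. The 77 leading genes became 147 with a pseudocount of 1 CPM. The share of nuclei with Slc17a6 was 65.0% at 1 UMI, 16.1% at 3 and 9.08% after thinning (mean of libraries). With 2 pools per genotype, the lack of a call does not show equal levels.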
